A study of Mus musculus with 8 samples.

Results

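Fatty acid uptake and oxidation was followed through 29 genes in RNA from the gastrocnemius, the large muscle of the calf, of aged mice. The genes were chosen by symbol, for the steps that carry a fatty acid from the blood to the respiratory chain, and all 29 were found among the 35949 genes of the deposited count table. All 29 also passed the filter on low counts, which left 14064 genes to test. The mice had been transplanted with hematopoietic stem cells (HSCs), and the labels name the genotypes WT (n = 4) and T3TG (n = 4). The series' design text names control HSCs and HSCs that overexpress SIRT3, a deacetylase of mitochondria. T3TG is read here as the SIRT3 arm. The titles of the WT libraries begin with Mx1 and those of the T3TG libraries with T3, and the labels do not say what Mx1 stands for, how the transgene is driven, or which age, strain or conditioning the recipients had. Whether each library is a separate mouse is not stated either, so p-values measure only the spread between these libraries. The comparison asks whether muscle of recipients of the SIRT3 cells differs in its fatty acid genes from muscle of control recipients.

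Muscle takes up fatty acids that lipoprotein lipase frees from circulating triglycerides, binds them in the cytosol and couples them to coenzyme A. Carnitine palmitoyltransferase 1 on the outer mitochondrial membrane moves the long-chain acyl group to carnitine, a carrier takes it across the inner membrane, and carnitine palmitoyltransferase 2 returns it to coenzyme A. Beta-oxidation then shortens the chain in repeated rounds of dehydrogenation, hydration, a further dehydrogenation and thiolysis. Electrons from the first dehydrogenation pass through the electron transfer flavoprotein to ubiquinone. Many of these genes are known targets of the PPAR and ERR nuclear receptors and of the coactivators PGC-1alpha and PGC-1beta.

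Library totals ran from 16.2 to 28.1 M counts. In T3TG replicates 2 and 3 nearly all counts were even numbers (97.5% and 98.0% of values between 10 and 99, against 50.5% to 52.5% in the other 6 libraries). The reason is not known and was not tested, and values from the 6 other libraries are given where they differ. Defining genes of muscle fibers were abundant in all 8 libraries, with Acta1, the skeletal actin, at 32709 ± 1293 CPM in WT and 32506 ± 4504 in T3TG (SD, n = 4 each; CPM denotes library-scaled counts). Sirt3 in the whole muscle was at 18.9 ± 2.49 CPM in WT and 17.7 ± 2.50 in T3TG, with an edgeR adjusted p of 0.881. Since this is bulk RNA, fewer cells of a type and less RNA per cell cannot be told apart.

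None of the 29 genes passed the test in either direction. By the edgeR quasi-likelihood test with adjustment over all genes tested, 0 of 29 were higher in T3TG (0.0711% of all genes were) and 0 of 29 were lower (0% of all genes were). DESeq2's Wald test also called 0 of 29 higher, where it called 0.651% of the 13062 genes it gave an adjusted p, and 0 of 29 lower, against 0.0459%. At an unadjusted edgeR p under 0.05, 0 of 29 were higher (5.88% of all genes) and 1 was lower (2.45% of all genes), the carnitine carrier Slc25a20. In 0 of the 29 did all T3TG libraries lie below all WT libraries (1.66% of all genes), and in 0 did they lie above them (3.12% of all genes).

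The values nevertheless leaned to one side by a small amount. Log2 fold changes (T3TG over WT) were below 0 in 23 of the 29 genes, against 50.9% of all genes tested, and above 0 in Cd36, Lpl, Cpt1a, Cpt1b, Acot2 and Ucp3. Of these Lpl and Acot2 were at 0.00, and Acot2 turned below 0 with RLE scaling factors. The median over the 29 genes was -0.08 (interquartile range -0.13 to -0.04), a difference of -5.52%, against a median of -0.00427 over all genes tested. The genes share their libraries, so they are not independent of each other, and the median was -0.16 without WT replicate 2 and -0.0443 without WT replicate 4. In 25 of the 29 genes the 95% interval of the fold change stayed within 1.5-fold either way, so larger differences were outside the interval for most of the pathway. The exceptions were Fabp3, Cpt1a, Cpt1b and Ucp3.

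**Figure D1:**
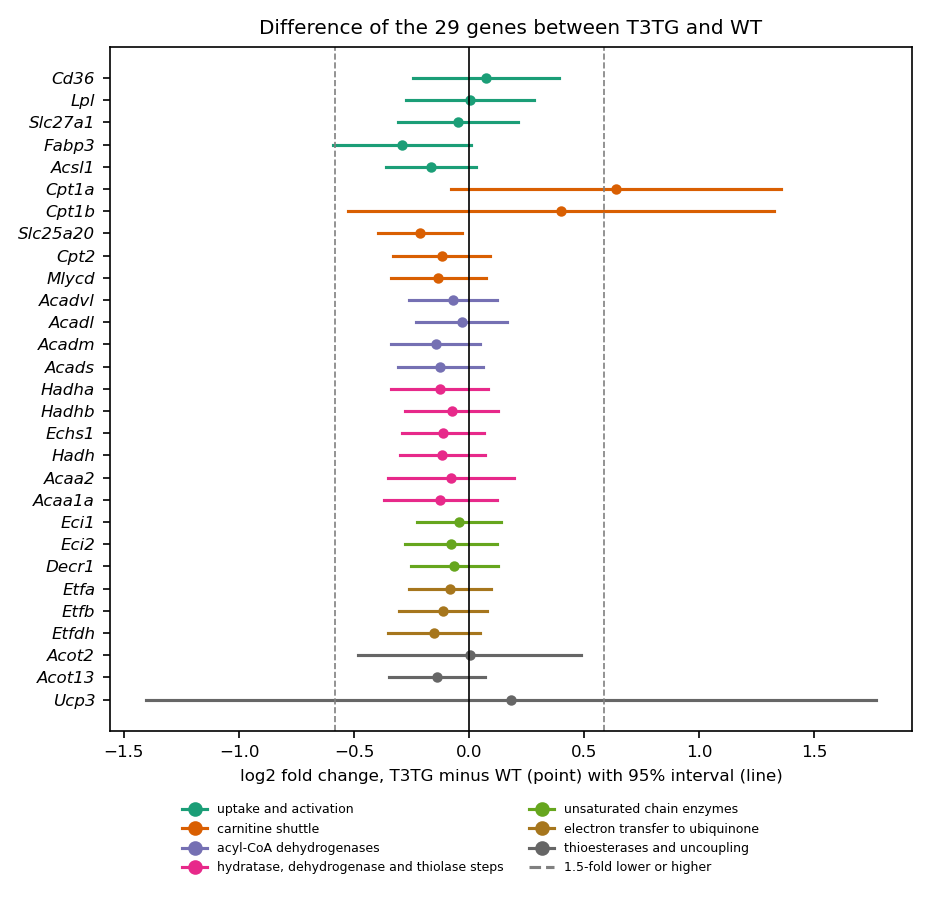
Log2 fold change of each of the 29 genes, T3TG minus WT (point), with its 95% interval (line) on the horizontal axis, genes on the vertical axis in pathway order and colored by step. Dashed lines mark 1.5-fold lower and higher. 23 points lie left of 0, 28 of the 29 intervals include 0, and Ucp3, Cpt1b and Cpt1a have the widest intervals.

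Levels of the pathway differed widely per kilobase of exon. Fabp3 was the highest at 677 CPM per kb, averaged over the 8 libraries, followed by Etfb at 212 and Lpl at 205 CPM per kb. Acadm, Acadvl, Hadhb, Etfa, Acadl and Acaa2 formed the next group, between 137 and 184 CPM per kb, and their libraries overlapped with each other and in part with those of Etfb and Lpl. At the bottom were Acot2 (10.1 CPM per kb), Cpt1a (2.92 CPM per kb) and Cpt1b (0.466 CPM per kb), whose count is uncertain because its exons overlap another gene.

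**Figure D2:**
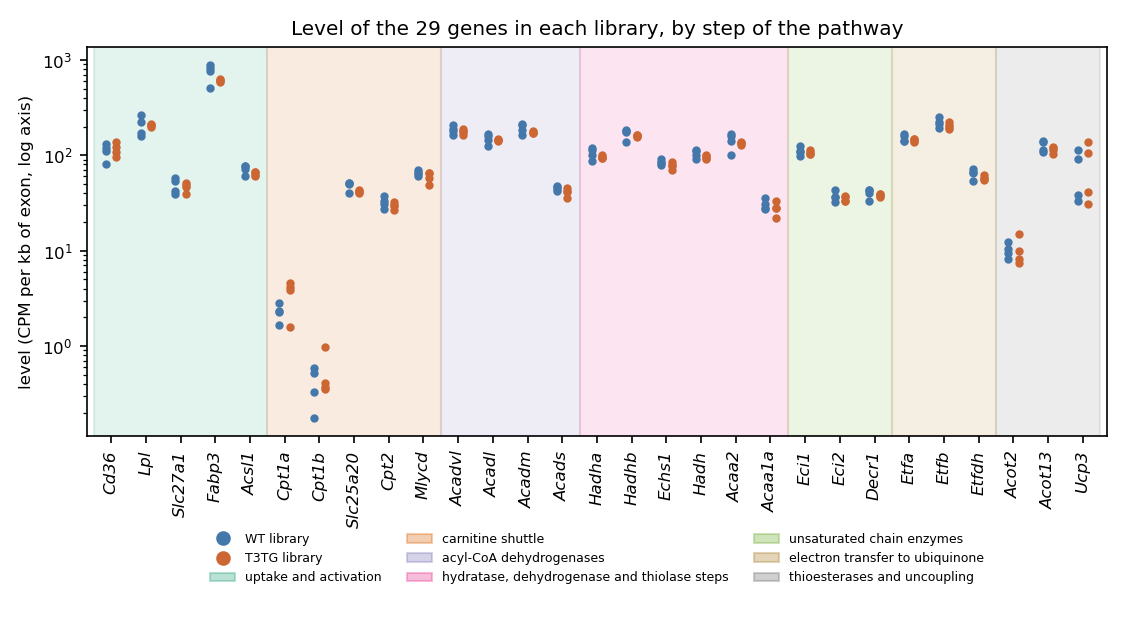
Level of each of the 29 genes in each library, in CPM per kilobase of exon on a log axis, with genes on the horizontal axis in pathway order and steps shaded. WT libraries are blue and T3TG libraries orange. Fabp3 is the highest at a mean of 677 CPM per kb and Cpt1b the lowest at 0.466 CPM per kb, and in every gene the ranges of the groups overlap.

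Uptake and activation comprised 5 genes, with 3 log2 fold changes below 0 and a median of -0.05. Lpl encodes lipoprotein lipase, which frees fatty acids at the capillary wall. It was at 920.3, 661, 712 and 1079 CPM in WT replicates 1 to 4 and at 852, 852, 813 and 865 CPM in T3TG replicates 1 to 4. The T3TG libraries lay close together inside the WT range, and the log2 fold change was 0.00 (SE 0.13, edgeR adjusted p = 0.996). Cd36, the surface receptor for long-chain fatty acids, was at 389.6 ± 74.9 CPM in WT and 409 ± 63.9 in T3TG (log2 fold change 0.07, SE 0.15), and in the 6 libraries its sign turned, to -0.11. Slc27a1, the fatty acid transport protein FATP1, was at 136 ± 24.7 and 132 ± 14.5 CPM (-0.05, SE 0.12). Its sign also turned, without WT replicate 1, WT replicate 4 or T3TG replicate 1, to at most 0.04.

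Fabp3, on chromosome 4 from 130308738 to 130315463 (mm10), encodes the heart and muscle fatty acid binding protein, the main carrier of fatty acids in the cytosol of muscle. It was at 622, 415, 732 and 684 CPM in WT and at 516, 488, 503 and 497 CPM in T3TG. Of the WT libraries 3 lay above all T3TG libraries, and WT replicate 2 lay below them all. The log2 fold change was -0.29 (SE 0.14, 95% interval -0.59 to 0.01), at an edgeR p of 0.0563 and an adjusted p of 0.621. Without WT replicate 2 it was -0.44 (adjusted p = 0.197), and without WT replicate 3 it was -0.20 (adjusted p = 0.843). The annotation places 19.6% of the exon bases of Fabp3 also in other genes, so part of its reads could have been left out or shared. Acsl1, the main long-chain acyl-CoA synthetase of muscle, was at 299 ± 32.3 CPM in WT and 266 ± 14.5 in T3TG (-0.17, SE 0.09, edgeR adjusted p = 0.668).

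The carnitine shuttle held the smallest p-value of the pathway, that of Slc25a20, and the log2 fold change farthest from 0, that of Cpt1a. Slc25a20, on chromosome 9 from 108662136 to 108684642 (mm10), encodes the carnitine-acylcarnitine translocase of the inner membrane. It was at 90.9, 72.5, 88.8 and 91.4 CPM in WT and at 77.0, 72.0, 74.7 and 72.6 CPM in T3TG. WT replicate 2 was at the level of the T3TG libraries and the other 3 WT libraries were above all of them. The log2 fold change was -0.21 (SE 0.09, 95% interval -0.40 to -0.03), at an edgeR p of 0.0253 and an adjusted p of 0.510. It kept its sign in all 17 other settings tried, with values from -0.29 to -0.16 and adjusted p of 0.402 or more.

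Cpt1a, on chromosome 19 from 3322326 to 3385735 (mm10), encodes the liver isoform of carnitine palmitoyltransferase 1, which other cells of a muscle, fat and immune cells among them, also make. It was at 9.76, 7.18, 10.1 and 12.3 CPM in WT and at 6.84, 16.6, 18.0 and 19.9 CPM in T3TG. T3TG replicates 2 to 4 lay above all WT libraries, and T3TG replicate 1 was the lowest of the 8. The log2 fold change was 0.64 (SE 0.31, 95% interval -0.08 to 1.35), at an edgeR p of 0.0753 and an adjusted p of 0.651. Without T3TG replicate 1 it was 0.88 with an adjusted p of 0.0398, and then 1 of the 29 genes was called higher, against 0.260% of the 14228 genes tested in that fit. In the 6 libraries it was 0.43 (adjusted p = 0.985).

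Some other measures were compared with Cpt1a across the libraries. Titles carry numbers that the labels do not explain, and the first of them is 6 in WT replicate 4 and in T3TG replicates 2 to 4, which are the 4 libraries with the most Cpt1a. Where that number is 2, Cpt1a was at 7.18 CPM in WT replicate 2 and 6.84 CPM in T3TG replicate 1, and where it is 6, at 12.3 CPM in WT replicate 4 and 16.6 to 19.9 CPM in T3TG. With 3 of its 4 libraries in 1 group, the number and the genotype cannot be told apart in full. In the fit without T3TG replicate 1, every T3TG library had the number 6. With a block on the number, to which WT replicates 1 and 3 add nothing, the log2 fold change of Cpt1a was 0.33. Markers of fat cells, 9 of 10 of them tested, had log2 fold changes above 0 in all 9 (50.9% of all genes were below 0). Their median was 1.61, with 0 past the adjusted threshold and 3 higher at an unadjusted edgeR p under 0.05 (5.88% of all genes). In 0 of the 9 did every T3TG library lie above every WT library (3.12% of all genes). The summed level of the markers was between 341 and 715 CPM in WT and between 261 and 766 CPM in T3TG. Most of it was Plin4, which muscle fibers also make. Without Plin4 the sum was 49.5, 73.5, 50.0 and 50.3 CPM in WT and 46.4, 133, 97.4 and 206 CPM in T3TG, with T3TG replicates 2 to 4 the highest, as for Cpt1a, and WT replicate 4 not high, unlike for Cpt1a. Adipoq, the fat cell hormone adiponectin, was detected in every library, at 1.26 to 3.44 CPM in WT and at 2.06, 11.7, 5.88 and 19.6 CPM in T3TG. The log2 fold changes of 8 macrophage markers had a median of 0.58. The adjusted threshold was passed by 0, all 8 were higher at an unadjusted edgeR p under 0.05 (5.88% of all genes), and in 5 every T3TG library lay above every WT library (3.12% of all genes). Their summed level was 105 to 123 CPM in WT and 131, 165, 227 and 148 CPM in T3TG replicates 1 to 4. T3TG replicate 1 had the least Cpt1a of all libraries and a marker sum above every WT library. T3TG replicate 4 had the most Cpt1a and a lower marker sum than T3TG replicates 2 and 3. The part of these cells in the Cpt1a values was not tested.

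**Figure D3:**
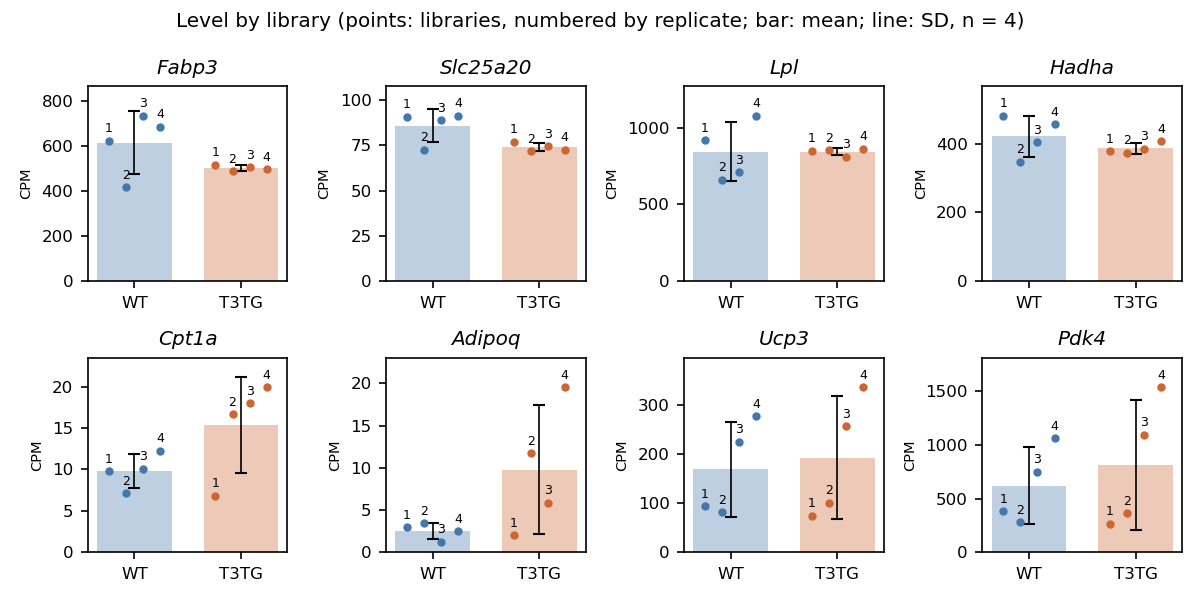
Level in CPM (vertical axes, from 0) of 6 of the 29 genes, and of the fat cell marker Adipoq and the kinase gene Pdk4, in WT and T3TG. Points are libraries numbered by replicate, bars are means and lines are SD (n = 4). Fabp3 and Slc25a20 have 1 low WT library, Lpl and Hadha a narrow T3TG group, Cpt1a and Adipoq their lowest T3TG value in replicate 1, and Ucp3 and Pdk4 are high in replicates 3 and 4 of both groups.

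Cpt1b, on chromosome 15 from 89416405 to 89425862 (mm10), encodes the muscle isoform of the same enzyme, which is known as the main one of skeletal muscle. Its row in the deposited table held only 8 to 78 counts a library, at 1.69, 0.965, 0.505 and 1.52 CPM in WT and 1.17, 1.03, 2.83 and 1.09 CPM in T3TG. In the GENCODE M21 annotation 94.8% of the exon bases of Cpt1b also belong to the readthrough gene Gm44502, and the rows of Gm44502 and of its other neighbor Chkb were at 0 in all libraries. Many counting modes drop reads that fall in overlapping genes, and the mode used here is not given, so the level of Cpt1b is uncertain and the effect of the overlap was not tested. Its log2 fold change was 0.40 (SE 0.43, edgeR adjusted p = 0.849), and the log2 ratio of Cpt1a to Cpt1b differed by 0.17 between the groups (two-sided exact permutation p = 0.914, adjusted over 3 ratios 0.914, smallest possible p 0.0286). Without Cpt1b the median log2 fold change of the other 28 genes was -0.10.

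Cpt2, which returns the acyl group to coenzyme A inside the mitochondrion, was at 76.3 ± 10.2 CPM in WT and 70.3 ± 5.51 in T3TG (log2 fold change -0.12, SE 0.10, edgeR adjusted p = 0.788). Mlycd, the malonyl-CoA decarboxylase that removes the inhibitor of carnitine palmitoyltransferase 1, was at 138 ± 8.31 and 126 ± 16.8 CPM (-0.13, SE 0.10, adjusted p = 0.753). T3TG replicate 1 was the lowest of the 8 libraries for Mlycd, at 103 CPM. Of the 5 shuttle genes 3 had log2 fold changes below 0, with a median of -0.12.

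The promoter of Cpt1a is shown because it holds the core motif of nuclear receptors, AGGTCA, the binding letters of PPAR and ERR factors. Promoter windows of RefSeq (GRCm38.p6, the assembly of mm10) run from 250 bases before to 50 bases from the start of a gene and matched 24 of the 29 genes, in 27 windows. Lpl, Decr1, Cpt1b, Acaa2 and Acot13 had none. AGGTCA on either strand lay in the windows of 6 genes (Acadm, Acadvl, Cd36, Cpt1a, Echs1 and Ucp3), and 16.3% of all promoter windows hold it. The PPAR direct repeat, AGGTCA and again AGGTCA with any base between them, and the ERR element TCAAGGTCA, which contains the core motif, were searched on both strands and found in 0 of the 27 windows, against 0.0396% and 0.423% of all windows. The TATA box TATAAA was found in 0 of them (13.6% of all windows) and the GC box GGGCGG in 17 genes (35.7% of all windows). A match describes letters in a window and is not a measured binding site. The windows of 3 genes with the core motif follow, with the motif or its reverse complement in capitals, 5′ to 3′ on the strand of the gene. The window of Cpt1a lies on the plus strand at chr19:3323051-3323350, inside the annotated span of the gene, that of Ucp3 on the plus strand at chr7:100472741-100473040 and that of Acadm on the minus strand at chr3:153944594-153944893.
Cpt1a: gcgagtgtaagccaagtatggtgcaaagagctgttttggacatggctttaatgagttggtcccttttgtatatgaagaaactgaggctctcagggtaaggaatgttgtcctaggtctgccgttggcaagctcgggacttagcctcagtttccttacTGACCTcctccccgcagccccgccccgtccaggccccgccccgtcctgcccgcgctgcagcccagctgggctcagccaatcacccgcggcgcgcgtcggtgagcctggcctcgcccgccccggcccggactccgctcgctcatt
Ucp3: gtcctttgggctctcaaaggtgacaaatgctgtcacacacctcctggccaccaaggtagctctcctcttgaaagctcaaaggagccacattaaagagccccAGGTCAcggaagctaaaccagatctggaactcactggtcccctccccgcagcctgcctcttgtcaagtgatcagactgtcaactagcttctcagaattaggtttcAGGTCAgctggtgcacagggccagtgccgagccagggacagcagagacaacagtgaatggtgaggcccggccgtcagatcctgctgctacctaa
Acadm: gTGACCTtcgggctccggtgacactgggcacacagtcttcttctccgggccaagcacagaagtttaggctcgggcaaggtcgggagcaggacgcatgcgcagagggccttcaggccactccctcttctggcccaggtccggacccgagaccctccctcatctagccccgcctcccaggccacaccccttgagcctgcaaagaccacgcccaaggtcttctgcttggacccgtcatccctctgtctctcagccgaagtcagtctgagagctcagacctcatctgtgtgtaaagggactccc

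Among the acyl-CoA dehydrogenases, which make the first double bond and are graded by chain length, all 4 log2 fold changes were below 0, with a median of -0.10. Acadm, the medium-chain enzyme shown above with its motif at the far end of the window, was at 427, 337, 378 and 436 CPM in WT and at 351, 367, 356 and 353 CPM in T3TG. The T3TG libraries lay inside the WT range and above WT replicate 2, and the log2 fold change was -0.15 (SE 0.09, edgeR adjusted p = 0.708). Acadvl, the very long-chain enzyme of the inner membrane, was at 402 ± 41.1 and 383 ± 22.6 CPM (-0.07, SE 0.09). The annotation gives 45% of its exon bases also to its neighbor Dvl2. Acadl, the long-chain enzyme, was at 284 ± 35.5 CPM in WT and 278 ± 4.91 in T3TG (-0.03, SE 0.09). Acads, the short-chain enzyme, was at 84.4 ± 4.87 and 77.4 ± 7.36 CPM (-0.13, SE 0.09).

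The hydratase, dehydrogenase and thiolase steps comprised 6 genes, again all with log2 fold changes below 0 (median -0.11) and none past the threshold. Hadha and Hadhb encode the alpha and beta subunits of the mitochondrial trifunctional protein, which carries out these 3 steps on long chains. Hadha was at 481, 347, 404 and 457 CPM in WT and at 378, 374, 385 and 408 CPM in T3TG. Hadhb was at 383, 286, 362 and 377 CPM in WT and at 325, 332, 335 and 343 CPM in T3TG. For both, the T3TG libraries lay inside the WT range and WT replicate 2 was the lowest of all 8. The log2 fold changes were -0.13 (SE 0.10) and -0.08 (SE 0.09), with edgeR adjusted p of 0.769 and 0.866.

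These subunits are read from neighboring genes that point away from each other, and their promoter is shown because most of it belongs to both. The start sites lie 273 bases apart on chromosome 5, Hadha on the minus strand at 30154980 and Hadhb on the plus strand at 30155253 (GRCm38.p6). The window of Hadhb at chr5:30155003-30155302, plus strand, shares the capital bases with the window of Hadha.
Hadhb: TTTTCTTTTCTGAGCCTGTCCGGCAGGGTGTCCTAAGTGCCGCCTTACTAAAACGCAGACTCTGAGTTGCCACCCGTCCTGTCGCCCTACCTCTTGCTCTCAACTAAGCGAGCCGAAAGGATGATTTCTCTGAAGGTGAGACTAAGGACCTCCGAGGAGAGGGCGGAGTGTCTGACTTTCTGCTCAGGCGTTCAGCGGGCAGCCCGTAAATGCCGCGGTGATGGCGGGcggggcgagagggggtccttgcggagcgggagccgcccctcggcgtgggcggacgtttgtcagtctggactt
The ratio of Hadha to Hadhb counts ranged from 1.11 to 1.26 in WT and from 1.13 to 1.19 in T3TG. On the log2 scale it differed by -0.05 between the groups, with a two-sided exact permutation p of 0.257 and 0.686 adjusted over the 3 ratios. Within WT the SD of the log2 ratio was 0.0742, below that of either subunit, and within T3TG it was 0.0325, about that of Hadhb.

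The remaining genes of these steps act on shorter chains or elsewhere. Echs1, the short-chain enoyl-CoA hydratase, was at 131 ± 7.76 CPM in WT and 121 ± 9.65 in T3TG (log2 fold change -0.11, SE 0.08). Hadh, the short-chain 3-hydroxyacyl-CoA dehydrogenase, was at 186 ± 18.5 and 171 ± 7.02 CPM (-0.12, SE 0.09). Acaa2, the mitochondrial thiolase, was at 214 ± 44.8 and 203 ± 6.45 CPM (-0.08, SE 0.13), with WT replicate 2 the lowest library at 152 CPM. Acaa1a, a peroxisomal thiolase, was at 53.4 ± 6.24 and 49.0 ± 7.91 CPM (-0.13, SE 0.12), and in the 6 libraries its sign turned, to 0.02. Acaa1a has the near-identical copy Acaa1b, so its count is uncertain.

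Enzymes that prepare unsaturated chains had 3 of 3 log2 fold changes below 0, with a median of -0.06. Eci1 and Eci2, the isomerases that move a double bond into the position that the hydratase accepts, were at 143 ± 14.3 and 64.5 ± 7.71 CPM in WT and at 139 ± 6.29 and 61.2 ± 4.21 CPM in T3TG. Their log2 fold changes were -0.04 and -0.08 (SE 0.09 for both). Decr1, the dienoyl-CoA reductase for polyunsaturated chains, was at 118 ± 13.7 and 113 ± 3.85 CPM (-0.06, SE 0.09). Each had an edgeR adjusted p of 0.864 or more.

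Electron transfer to ubiquinone showed the same small lean, 3 of 3 genes below 0 with a median of -0.11. Etfa and Etfb, the subunits of the electron transfer flavoprotein, were at 213 ± 19.1 and 196 ± 20.2 CPM in WT and at 201 ± 7.70 and 182 ± 11.7 CPM in T3TG, which gave log2 fold changes of -0.08 (SE 0.08) and -0.11 (SE 0.09). The annotation gives 69.1% of the exon bases of Etfb also to another gene model, so its level is uncertain. The log2 ratio of Etfa to Etfb differed by 0.03 between the groups (two-sided exact permutation p = 0.457, adjusted over 3 ratios 0.686). Etfdh, the dehydrogenase that hands the electrons to ubiquinone, was at 156 ± 19.0 and 140.1 ± 7.76 CPM (-0.15, SE 0.09, edgeR adjusted p = 0.703).

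Ucp3 had the largest SD of log2 CPM within each group among the 29 genes. Ucp3, on chromosome 7 from 100472991 to 100486432 (mm10), encodes the muscle uncoupling protein of the inner membrane, which is known to rise with fasting and fatty acid supply. It was at 93.8, 81.4, 226 and 277 CPM in WT and at 74.6, 101, 257 and 337 CPM in T3TG. Replicates 3 and 4 of both groups were high and replicates 1 and 2 of both groups were low, a split that does not follow the genotype or the first title number. The log2 fold change of 0.18 had an SE of 0.65 and a 95% interval of -1.40 to 1.77, so a difference between the groups was not detectable at this spread. Pdk4, the pyruvate dehydrogenase kinase that is known to rise with fasting too, was high in the same 4 libraries. It was at 381, 280.2, 751 and 1064 CPM in WT and at 267, 363, 1094 and 1537 CPM in T3TG. The part of feeding in this split was not tested.

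Acot2, a mitochondrial acyl-CoA thioesterase, was at 22.2 ± 3.87 CPM in WT and 22.3 ± 7.37 in T3TG (log2 fold change 0.00, SE 0.22). T3TG replicate 4 was the highest library at 32.8 CPM, and Acot2 has the near-identical neighbor Acot1, so its count is uncertain. Acot13, a thioesterase found at mitochondria, was at 90.7 ± 11.9 and 82.4 ± 6.19 CPM (-0.14, SE 0.10, edgeR adjusted p = 0.742). Ucp3 and Acot2 had log2 fold changes above 0 and Acot13 below it, with a median of 0.00 for these 3 genes.

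The spread within the groups was as visible as the difference between them. Counts of the 29 genes made up 0.646, 0.499, 0.623 and 0.703% of the library in WT replicates 1 to 4 and 0.608, 0.604, 0.600 and 0.599% in T3TG replicates 1 to 4. The range of the T3TG libraries lay inside the range of the WT libraries in 14 of the 29 genes, against 19.3% of all genes tested. The SD of log2 CPM was larger in WT than in T3TG in 22 of the 29, against 50.0% of all genes. The first of these counts rests on WT replicate 2, which was the lowest WT library for 27 of the 29 genes (24.7% of all genes), while WT replicate 4 was the highest for 18 (24.8% of all genes). Without WT replicate 2 the T3TG range lay inside the WT range in 2 genes (14.0% of all genes) and the SD was larger in WT in 18 (48.0% of all genes).

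**Figure D4:**
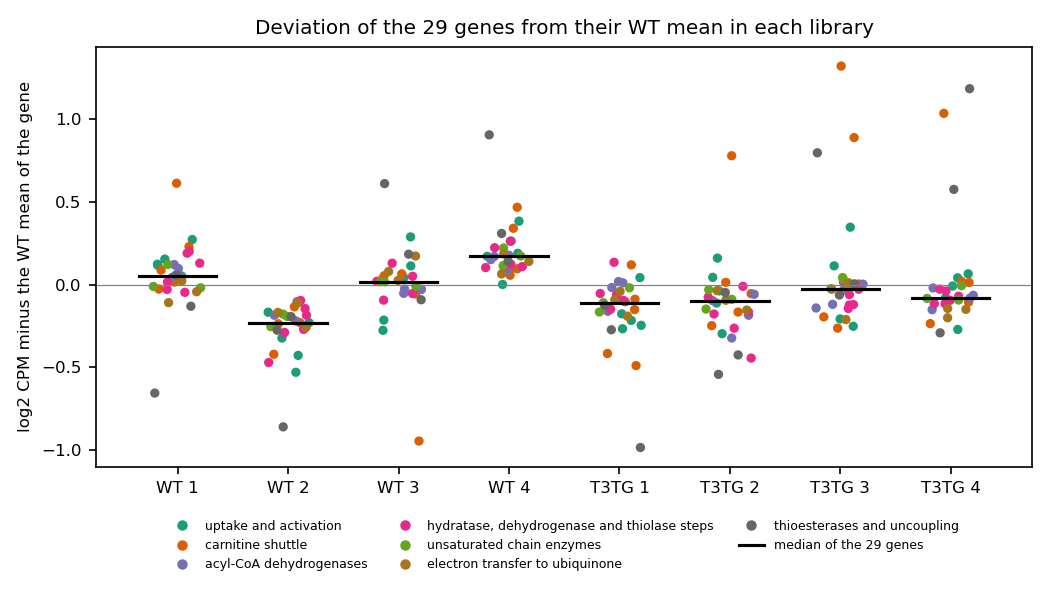
Deviation of each of the 29 genes from its WT mean (vertical axis, log2 CPM) in each of the 8 libraries (horizontal axis). Points are genes colored by step and black bars are medians over the genes. The median is -0.23 in WT replicate 2 and 0.17 in WT replicate 4, and between -0.11 and -0.03 in the 4 T3TG libraries.

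In median over the 29 genes, the deviation from the WT mean was 0.05, -0.23, 0.02 and 0.17 on the log2 scale in WT replicates 1 to 4 and -0.11, -0.10, -0.03 and -0.08 in T3TG replicates 1 to 4. The T3TG libraries therefore sat between the lowest and the middle of the WT libraries. Neighboring pathways of the mitochondrion leaned the same way in the same comparison. Of 16 tricarboxylic acid cycle genes 15 had log2 fold changes below 0 (median -0.06), and of 34 subunits of complexes III to V all 34 did (median -0.13), with 0 past the adjusted threshold in either list. Markers of muscle fibers had a median of -0.14 over 10 genes, with 9 below 0, and markers of slow and oxidative fibers -0.11. Both medians were of about the size seen in the oxidation genes. Acta1, the most abundant fiber marker, was at -0.009. The summed level of the 10 fiber markers was 135742 to 147522 CPM in WT. In T3TG replicates 1 to 4 it was 116063, 120570, 149560 and 148974 CPM, so the sum was not lower in every T3TG library. The part of fiber content in the values was not tested.

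Other genes of the same route gave mixed values, with 0 past the adjusted threshold in each of 4 further lists. Of 13 other uptake, binding and activation genes 10 had log2 fold changes above 0, with a median of 0.17. Angptl4, the secreted inhibitor of lipoprotein lipase, was at 3.38, 3.14, 5.37 and 5.27 CPM in WT and at 6.28, 6.73, 8.21 and 14.1 CPM in T3TG. All T3TG libraries lay above all WT libraries, and the log2 fold change of 1.03 (SE 0.27) had an edgeR adjusted p of 0.235. Cav1, which forms the caveolae of endothelial and fat cells, was also higher in every T3TG library (142 ± 16.5 against 183 ± 29.4 CPM, edgeR adjusted p = 0.367). The margin was narrow, with the highest WT library at 151.2 CPM and the lowest T3TG library at 151.4 CPM. Such a separation upward was seen in 2 of the 13 genes (3.12% of all genes tested). The median log2 fold change of 9 endothelial markers was 0.17 in the same comparison.

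Of 10 other carnitine and malonyl-CoA genes 7 had log2 fold changes below 0 (median -0.06). Slc22a5, the carnitine transporter OCTN2 of the cell membrane, was at 12.9 ± 1.38 CPM in WT and 10.6 ± 1.70 in T3TG (-0.28, SE 0.14, edgeR adjusted p = 0.639). Prkag3, the muscle gamma subunit of the AMP-activated kinase, ranged from 181 to 275 CPM in WT and from 174 to 239 CPM in T3TG (-0.31, SE 0.14, adjusted p = 0.579). Crat, carnitine acetyltransferase, was the most abundant at 558 ± 16.8 and 521 ± 19.7 CPM. Of 21 other oxidation enzymes tested 15 had log2 fold changes below 0, with a median of -0.04, and Acat1, the most abundant, was at 267 ± 23.3 and 249 ± 10.7 CPM.

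Transcription factors and coactivators of fatty acid oxidation divided evenly, 9 below 0 and 9 above 0 among 18 tested. Ppargc1b, which encodes PGC-1beta, was at 27.9, 29.8, 24.7 and 21.3 CPM in WT and at 18.9, 19.2, 13.5 and 15.6 CPM in T3TG. All T3TG libraries lay below all WT libraries, and the log2 fold change was -0.63 (SE 0.13, 95% interval -0.91 to -0.35) with an edgeR adjusted p of 0.109. Ppard, the delta form of PPAR, was at 31.3 ± 5.19 and 36.5 ± 0.424 CPM, higher in every T3TG library (0.22, SE 0.11, adjusted p = 0.635). Tfam, a transcription factor of the mitochondrial genome, was at 43.6 ± 0.903 and 39.3 ± 3.56 CPM (-0.15, SE 0.09, edgeR adjusted p = 0.683). It was lower in every T3TG library by a narrow margin, with the lowest WT library at 42.48 CPM and the highest T3TG library at 42.42 CPM. Over all genes tested, every T3TG library lay below every WT library in 1.66% and above in 3.12%. The first title number was followed by some of the 18 genes and not by others. Pdk4 did not follow it, being higher in WT replicate 3 than in T3TG replicate 2. Ppargc1b had its lowest WT level, 21.3 CPM, in WT replicate 4, the only WT library with the number 6. T3TG replicate 1, with the number 2, was at 18.9 CPM, inside the 13.5 to 19.2 CPM of T3TG replicates 2 to 4. For Ppargc1b too, the number and the genotype cannot be told apart in full. Foxo1 and Ppargc1a, named after their values were seen, were high in the 4 libraries whose first title number is 6. WT replicate 4 had 132 and 82.1 CPM, T3TG replicates 2 to 4 had 48.2 to 118 and 59.0 to 88.5 CPM, and the other 4 libraries had at most 24.6 and 37.3 CPM. Ppara, Pparg, Foxo3 and Lpin1, also named after their values were seen, had their 4 highest values in the same libraries. Ppara was at 82.1 CPM in WT replicate 4, 41.3 to 59.7 CPM in T3TG replicates 2 to 4 and at most 29.5 CPM elsewhere. For Foxo3 the margin was narrow, with 38.2 CPM in T3TG replicate 2 and 37.0 CPM in T3TG replicate 1. The share of all genes with this order was not counted.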

How the data were processed

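RNA was measured in gastrocnemius muscle of 4 WT and 4 T3TG libraries. The authors deposited 1 table of unnormalized counts, a row for each gene symbol. Per the labels' protocols the libraries were polyA-enriched and read in pairs on a NovaSeq. Per the submitters' processing notes the build is mm10 and the tools include HTSeq 0.9.1, HISAT2 2.2.1 and DESeq2 1.34.0. The sources used here give no annotation, strand or overlap setting, so overlapping, antisense and near-identical genes can share or lose reads.

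Of 35976 rows, 27 held a date in place of a symbol (0.0885% to 0.0961% of counts) and were left out. After filterByExpr and TMM scaling, edgeR 4.0.16 (quasi-likelihood test, robust, R 4.3.3) compared the groups with no other term, with Benjamini-Hochberg adjustment over 14064 genes and a threshold of 0.05. Log2 deviations use a prior count of 2. Per-kilobase levels use union exons of GENCODE M21. Ratios were compared by two-sided exact permutation over the 8 libraries. The code was tested on simulated data. All pairs of libraries differed by more than sampling noise (chi-square per gene 9.80 to 29.7). All 29 genes are named, and of each other list up to 3 genes with the lowest p and the most abundant one. Members and lists were chosen with earlier results of these data known. Alternatives were other scaling, filters, DESeq2 1.42.0, voom of limma 3.58.1, a block, halved counts or removal of T3TG replicates 2 and 3, and each library left out in turn. The range and SD counts, also without each WT library, were added after the data were seen.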

Additional observations from a re-analysis of the deposited data

Results flagged for a closer look

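In the 58 groups of 4 values examined, chance alone gives a flag in about 1 of 20, and 2 were found. Slc25a20 was low in 1 WT library, WT replicate 2, at 72.5 CPM against 88.8 to 91.4 CPM in the other WT libraries. Cpt1b was high in 1 T3TG library, T3TG replicate 3, at 2.83 CPM against 1.03 to 1.17 CPM in the others, in a row with few counts. Each was flagged because the library stood far from the rest of its group.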

How the results depend on the processing

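Of the 29 genes 19 kept the sign of their log2 fold change in all 17 other settings, and the median over the 29 genes stayed between -0.16 and -0.0443. The 10 others had values near 0 or wide errors and were called in no setting. With RLE factors Acot2 turned to -0.00105. With no filter on low counts Lpl and Acot2 were -0.00328 and -0.00502, with DESeq2 -0.00111 and -0.000493, and with voom Acot2 was -0.0138. Without T3TG replicates 2 and 3, Cd36 and Cpt1b were -0.11 and -0.0651, and Acaa1a was 0.0172. With 1 library left out, the log2 fold changes ran from -0.14 to 0.0390 for Slc27a1, -0.23 to 0.52 for Ucp3, -0.0530 to 0.16 for Cd36, -0.0976 to 0.14 for Lpl, -0.24 to 0.12 for Acot2, -0.11 to 0.0262 for Acadl, -0.22 to 0.00581 for Acaa2, -0.10 to 0.0138 for Eci1 and -0.11 to 0.61 for Cpt1b, and the log2 ratio of Cpt1a to Cpt1b from -0.11 to 0.55.

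Of the 29 genes, 0 or 1 were called higher with 1 library left out. The call was Cpt1a without T3TG replicate 1, its lowest library, a fit in which every T3TG library has the first title number 6. The number of genes with the T3TG range inside the WT range ran from 2 to 14 with 1 WT library left out. Over all genes the calls higher and lower were 10 and 0, against 104 and 3 with no filter, 85 and 6 with DESeq2, 0 and 0 without T3TG replicates 2 and 3, and 0 to 37 and 0 to 1 with 1 library left out. Causes of these shifts were not tested.

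Libraries share the first number of their titles across the groups (2 and 6). Deviations of same-numbered libraries from their group means correlated at 0.12 for number 2 and at -0.0537, 0.15 and 0.0732 for number 6, against -0.19 to 0.0847 for the 12 other pairs. Not all same-numbered pairs deviated together. Most T3TG libraries have the number 6, so an effect of that number is largely subtracted with the T3TG mean. The correlations therefore cannot decide whether the number matters. It was not treated as a pairing in the main comparison, and what it stands for is not known. WT replicates 1 and 3 each have a number of their own, so a replicate block on the number leaves them no part in the group difference. With this block, 3 genes were called higher and 1 lower over all genes and 0 of the 29. Lpl, Acot2 and Ucp3 were then -0.0765, -0.12 and -0.21, and Cpt1a was 0.33. Cpt1b has the fewest counts of the 29 genes, 8 to 78 a library, which limits its precision.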
